A study of Mus musculus with 199 samples.

Results

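The 10 genes described here are the core of the Notch pathway that the series' count table lists by symbol: the receptors Notch1, Notch2 and Notch3, the ligands Dll1, Dll3, Dll4, Jag1 and Jag2, and the target genes Hes1 and Hey1. They were chosen by name, not by their values, and are 10 of 31581 gene rows. All 10 are protein coding, and all 10 have counts in at least 1 of the 199 libraries. Levels are given in CPM, the count of a gene divided by the library's total over all gene rows, spike-ins left out, and scaled to 1000000.

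The study sequenced mouse small-cell lung cancer (SCLC) cells in groups of 10 cells, cut by laser from frozen sections, and asked how their transcript levels vary in culture and in liver. The KP1 line (Rb1-/-Trp53-/-) was grown as spheroids (28 libraries of 10 cells), as colonies in the livers of immunocompromised nude mice (33 libraries) and as colonies in the livers of immunocompetent F1 mice (31 libraries). Libraries labelled as pool-and-split controls at the 10-cell level number 20, 35 and 24 for the same 3 settings, and the labels do not say how they were pooled. The RPC line, a pre-SCLC line with the genotype Rb1-/-Trp53-/-p130-/+Crebbp-/-, gave 24 libraries of 10 cells from spheroids and no pools. Bulk spheroid RNA, prepared by another protocol, gave 1 library each for KP1, KP2 (which adds Ptch1+/lacz), KP3 (which adds Axin2+/lacz) and KP5 (which adds the BAT-GAL reporter). Every line therefore lacks Rb1 and Trp53, controls included, and no line or host carries an engineered Notch gene. The labels give no age, dose or time, and no number of animals, cultures or pools, so the p-values below speak for captures and not for animals. Each line is a single line, and libraries of 1 pool group may share cells.

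Notch receptors sit in the membrane of one cell and are switched on by Delta-like or Jagged ligands on a neighbour. Ligand binding lets proteases cut the receptor, and the freed intracellular part enters the nucleus, joins the DNA-binding protein Rbpj and turns on repressors of the Hes and Hey families. In SCLC, Hes and Hey proteins repress the neuroendocrine program. Dll3 is unusual among the ligands: it stays largely inside the cell and acts mainly to block Notch signalling, and it is a drug target in SCLC.

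Gene rows summed to between 718208 and 7557773 counts in the captured libraries and between 17266200 and 42447973 in the bulk ones. Most members were near the limit of detection in the captures: a library of 10 cells often held no read of a gene that another library of the same group held at over 20 CPM. For that reason each member is given as the number of libraries with counts as well as by its level. KP1 spheroid libraries split by spike-in share, with 9 of 28 10-cell and 6 of 20 pool libraries at 0.1% ERCC or more, and F1 liver libraries split by the pseudogene Rpl19-ps11, with 5 of 31 and 5 of 24 below 100 CPM. Member and pathway calls from the filtered edgeR fit and from detection that were lost on 1 side of these splits are marked as such, and the unfiltered fits were not split. All liver libraries lay at 0.1% ERCC or more, as did 22 of 24 RPC ones. The median share was 0.969% in nude and 2.16% in F1 liver 10-cell libraries, against 0.0047% in KP1 spheroid ones. In pools it was 5.94%, 13.2% and 0.0027% in the same order. Thinning evens the number of reads and not this share, and its part in the liver comparisons was not tested. Neuroendocrine identity was checked on the granule protein Chga, which had counts in 28 of 28 KP1 spheroid, 33 of 33 nude liver, 31 of 31 F1 liver and 24 of 24 RPC 10-cell libraries, and on the neuronal ubiquitin hydrolase Uchl1, which had counts in 28 of 28 KP1 spheroid, 33 of 33 nude liver, 31 of 31 F1 liver and 24 of 24 RPC 10-cell libraries. Both were picked from a list of 11 neuroendocrine genes after their values were seen. By edgeR, 6 of 9 tested genes of that list were lower and 0 higher in nude liver than in spheroids (median log2 difference -0.85, against -0.04 over all genes), 4 of 8 were lower and 1 higher in F1 liver (-0.32 against 0.22), and 5 of 10 were lower and 3 higher in RPC than in KP1 (-0.59 against 0.01). The median over all genes in F1 liver was -0.44 with limma-voom and with the replicate block.

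The libraries taken from liver also held transcripts of host cells. The summed level of 11 hepatocyte genes had a median of 867 CPM in nude liver 10-cell libraries (33.4 to 4643) and 183 CPM in F1 liver ones (0 to 2123), against 1.11 CPM in KP1 spheroids. The summed level of 5 erythrocyte genes had a median of 551 CPM in nude liver (0.593 to 3743), 1622 in F1 liver (0 to 32920) and 0 in KP1 spheroids, and that of 7 stellate cell genes had medians of 198, 102 and 55.3 CPM. The summed level of 9 endothelial genes had medians of 24.6, 2.07 and 0.234 CPM in the same order, and in KP1 spheroids Cdh5, Tek, Lyve1 and Eng were at 0. Endothelial cells normally carry Notch1, Dll4, Jag1 and Hey1, so the counts of these genes in liver libraries cannot be assigned to tumour cells or host cells from these data. In such small captures, fewer cells of a type and less RNA per cell cannot be told apart either.

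Dll4 and Jag1 are shown by the stretch before their transcription start, because Dll4 had the largest difference in detection between the KP1 and RPC lines and Jag1 had the largest ratio of highest to lowest level over the bulk lines among members with counts in all 4. The deposited annotation puts Dll4 at chr2:119325784-119335962 on the plus strand and Jag1 at chr2:137081456-137116644 on the minus strand. The sequences are from RefSeq windows of 250 bases before a start, build GRCm38.p6, which matched 8 of the 10 members, all but the targets Hes1 and Hey1. The Dll4 window, on the plus strand at chr2:119325534-119325783, ends at the base before the deposited gene start. For Jag1, on the minus strand, the 126 bases at chr2:137116645-137116770 are the part that lies before the start in the deposited gene model as well. Capitals mark GC boxes, GGGCGG searched on both strands, which 32.7% of all 32851 windows hold.

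Dll4: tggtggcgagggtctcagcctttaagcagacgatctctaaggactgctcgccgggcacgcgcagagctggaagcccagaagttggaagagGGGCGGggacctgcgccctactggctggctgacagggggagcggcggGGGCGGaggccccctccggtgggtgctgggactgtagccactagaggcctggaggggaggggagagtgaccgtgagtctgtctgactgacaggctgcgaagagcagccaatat
Jag1: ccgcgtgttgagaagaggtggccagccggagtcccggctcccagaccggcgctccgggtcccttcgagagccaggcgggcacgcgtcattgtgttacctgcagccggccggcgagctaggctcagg

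The Dll4 stretch holds 2 GC boxes and the shorter Jag1 stretch none, as does the full Jag1 window. The Dll4 stretch holds no E-box CANNTG, a motif class of basic helix-loop-helix factors, the family that Hes and Hey proteins belong to, which 66.2% of windows of the same 250 bases hold, and the shorter Jag1 stretch holds none, while the full Jag1 window holds 1. The E-box form CAGCTG, found in 13.0% of windows, occurs within the windows of Dll3, Jag1 and 1 of the 2 Dll1 starts, with its first base at -7, -82 and -132 from the RefSeq start. In Dll3 and Jag1 that position lies inside the deposited gene model. TGGGAA, the core of the Rbpj motif, searched on both strands and present in 21.6% of windows, is in none of the 9 windows of receptors and ligands. The targets Hes1 and Hey1 had no window and were not searched. These are matches of letters only.

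Per kilobase of exon, which lets genes be compared, in bulk spheroids of all 4 lines Dll1, Dll3, Dll4 and Jag2 lay above every receptor, while Jag1 lay below Notch2 in KP2 and KP5. The highest member on that scale was Dll4 in KP1 (30.5 CPM per kb), KP2 (38.1) and KP3 (17.9), and Jag2 in KP5 (21.5). Notch2 was the leading receptor in all 4 lines, at 2.70 CPM per kb in KP1, 0.839 in KP2, 1.12 in KP3 and 1.52 in KP5. Notch1 stayed between 0.0232 and 0.234 CPM per kb. Notch3 had 0 counts in KP1 and KP2, 3 in KP3 and 14 in KP5.

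The lines differed more in some ligands and targets than in others. Jag1, which signals through the same receptors as the Delta-like ligands, stood at 56.9 CPM in KP1, 10.6 in KP3, 3.11 in KP2 and 1.12 in KP5. Hey1 stood at 56.9 CPM in KP3, 16.4 in KP1, 11.4 in KP2 and 7.35 in KP5. Dll3 was 61.2 CPM in KP2, 40.8 in KP5, 21.1 in KP1 and 12.3 in KP3. Dll1 varied least, from 16.1 to 22.1 CPM. Hes1, the classic Notch target, was low in all 4 lines, at 1.20 to 3.76 CPM. The exact Poisson intervals of Jag1 in the 4 lines do not overlap (53.4 to 60.5 CPM in KP1, 9.61 to 11.7 in KP3, 2.60 to 3.69 in KP2, 0.776 to 1.57 in KP5). With 1 library per line, these intervals cover counting error only, and the lines were not tested against each other.

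**Figure D1:**
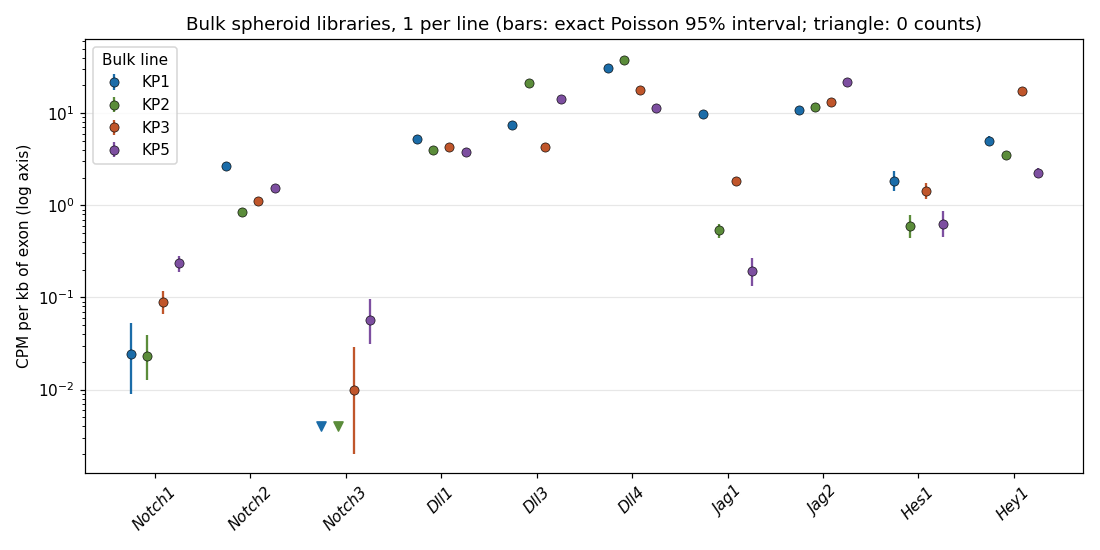
Level of each gene in the bulk spheroid library of each line, in CPM per kilobase of exon on a log axis, with exact Poisson 95% intervals and triangles for 0 counts. Delta-like and Jag2 levels lie above the receptors in every line, and Jag1 runs from 9.76 CPM per kb in KP1 to 0.192 in KP5.

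In 10-cell libraries of KP1 spheroids, the Delta-like ligands Dll3 and Dll4 were the members seen most often. Dll3 had counts in 25 of 28 libraries, with a mean of 7.71 ± 14.1 CPM (SD, n = 28), a lowest value of 0, a median of 1.74 and a highest of 53.3. Dll4 had counts in 24 of 28, with a mean of 10.2 ± 18.6 CPM, a median of 2.70 and a highest of 80.4. For both genes the SD exceeds the mean, and the 3 highest libraries hold 62.8% of all Dll3 and 59.8% of all Dll4, summed as CPM. Dll4 was 2.65 and Dll3 2.71 mean CPM per kb, a difference far inside their spread between libraries. Whether reads of the captured libraries, amplified by poly(A) PCR, scale with exon length was not checked.

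The other ligands were rarer. Jag1 had counts in 16 of 28 KP1 spheroid libraries, at 3.45 ± 13.2 CPM, and 1 library at 70.0 CPM sets that mean, since the next highest is 11.0. Dll1 had counts in 7 libraries and Jag2 in 6, with highest values of 2.56 and 7.34 CPM. Jag2 was the second ligand per kilobase in bulk KP1, at 10.8 CPM per kb, but was seen in 6 of 28 captured libraries of the same line, at 0.068 mean CPM per kb. The bulk and captured libraries were made by different protocols and were not tested against each other.

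Among receptors, Notch2 had counts in 15 of 28 KP1 spheroid libraries (median 0.205 CPM, highest 22.0). Notch1 had counts in 2 and Notch3 in none, and 0 of 28 libraries allows a share of libraries with Notch3 counts of up to 12.3% (exact 95% interval). Of the targets, Hey1 had counts in 11 of 28 libraries, with a highest value of 18.6 CPM, and Hes1 in 3, with a highest value of 6.90. The sequence of members by share of libraries was thus Dll3, Dll4, Jag1, Notch2, Hey1, Dll1, Jag2, Hes1, Notch1 and Notch3. The exact intervals of neighbours in that sequence overlap throughout.

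**Figure D2:**
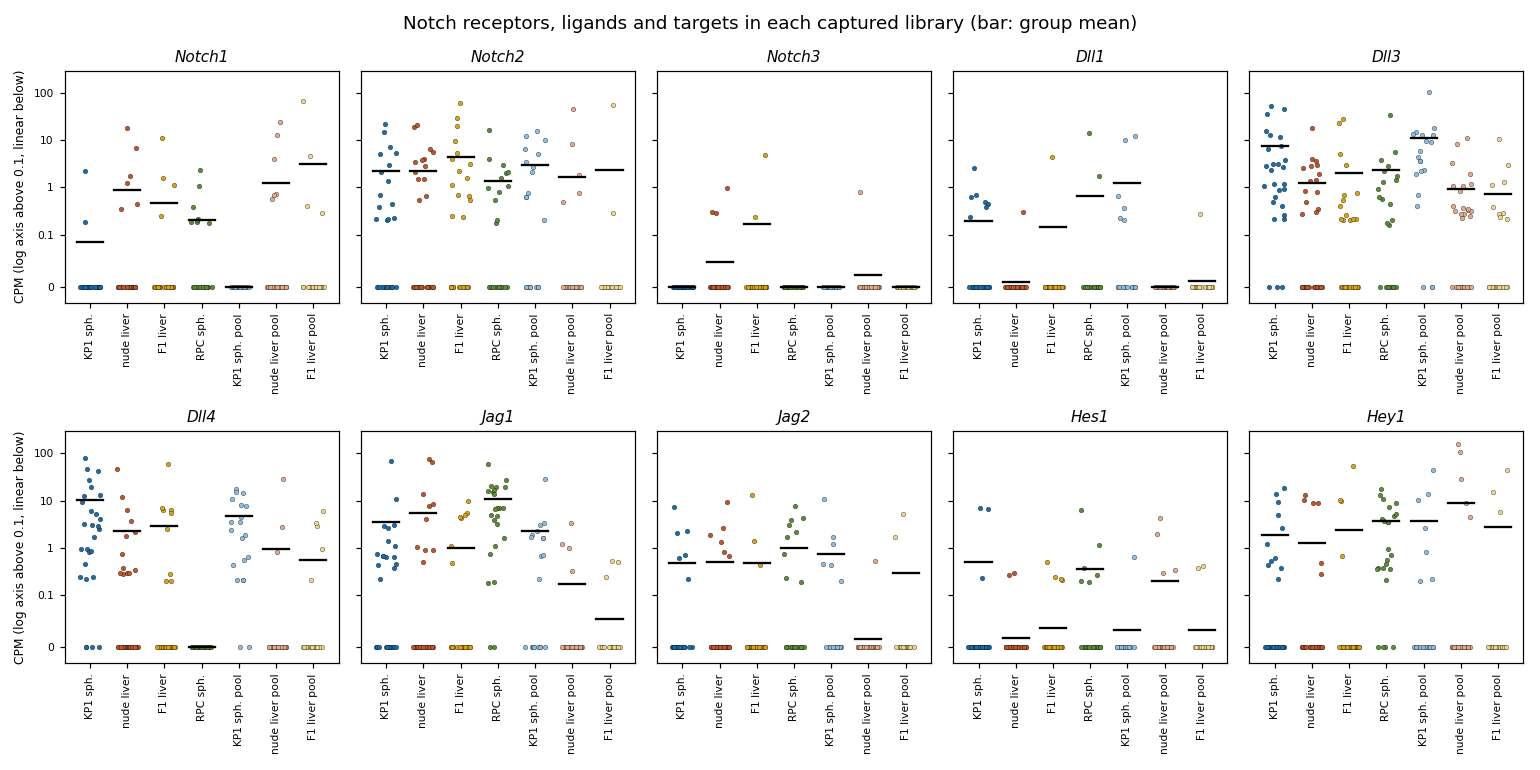
CPM of each of the 10 genes in every captured library (1 point per library, log axis above 0.1 CPM and linear below), by group, with a bar at the group mean. Points at 0 are libraries without counts; Dll4 has 24 of 28 points above 0 in KP1 spheroids and 0 of 24 in RPC.

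The liver comparisons ask what changes when KP1 cells leave culture for a host liver. The planned mean test was edgeR's quasi-likelihood test with a filter on low counts and Benjamini-Hochberg adjustment over all tested genes (called under 0.05). The filter removed all 10 members in the 3 liver comparisons of 10-cell libraries, so 0 were called there. It called 34.1% of 7834 genes in nude liver against spheroid, 12.6% of 7309 in F1 liver against spheroid and 19.2% of 7064 in F1 against nude liver. A test of the number of libraries with counts, added after the data were seen, could reach the members. Each library was thinned at random to the lowest gene total of the groups compared, and Fisher's exact test (two-sided) was applied to each gene with counts in 10 to 90% of libraries, with Benjamini-Hochberg adjustment over all such genes.

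Dll3 and Dll4 were found in fewer libraries of F1 liver colonies than of spheroids. Dll4 had counts in 6 of 31 F1 liver libraries against 21 of 28 spheroid ones after thinning to 1646338 counts (adjusted p = 0.00166). Dll3 had counts in 10 of 31 against 22 of 28 (adjusted p = 0.0144). These are 2 of the 7 members tested, where 7.66% of 10188 genes were called with fewer libraries in the liver. At full depth, Dll4 ran from 0 to 60.1 CPM in F1 liver with a median of 0 and a mean of 2.86 ± 10.8 CPM (n = 31), so single liver libraries reached the upper spheroid values and the groups overlap. Dll3 ran from 0 to 29.0 CPM with a median of 0 and a mean of 2.07 ± 6.54 CPM. With 1 library fewer, the unadjusted p of Fisher's exact test was at most 0.000672 for Dll3 and 5.25e-05 for Dll4, under the largest p called (0.00496). In 20 further draws of the thinning Dll4 was called in 20 and Dll3 in 18.

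The call on Dll4 held in the 26 F1 libraries with at least 100 CPM of Rpl19-ps11 (4 of 26, adjusted p = 0.00113) and so did that on Dll3 (9 of 26, adjusted p = 0.0284). Against the 19 spheroid libraries with under 0.1% ERCC, Dll4 was called (14 of 19, adjusted p = 0.0143) and Dll3 was not. Against the 9 others, which share the ERCC class of all F1 libraries, neither was called, nor was either in the 5 F1 libraries with less Rpl19-ps11. The unfiltered edgeR fit, which called 26.7% of 19000 genes, called neither Dll3 (log2 difference -1.61, adjusted p = 0.167) nor Dll4 (-1.83, adjusted p = 0.128) between F1 liver and spheroids. It called Hes1 lower, and Notch1 and Notch3 higher in F1 liver, the last pair lost without 1 library each (0.26, adjusted p = 0.796, and 0.33, adjusted p = 0.367). Hes1 had counts in 4 of 31 F1 liver libraries and 3 of 28 spheroid ones, so its call rests on 2 spheroid libraries at 6.90 and 6.47 CPM. Without the higher of these its log2 difference was -1.75 (adjusted p = 0.0443, edgeR).

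In nude liver colonies both ligands were also seen in a smaller share of libraries, but the call depended on depth and on the random draw of the thinning. Dll4 had counts in 13 of 33 nude liver libraries at full depth (mean 2.26 ± 8.25 CPM, median 0, highest 46.3). Dll3 had counts in 15 of 33 (mean 1.27 ± 3.25 CPM, median 0, highest 18.2). Nude liver libraries are the shallowest: after thinning to 718149 counts, Dll4 was found in 8 of 33 against 16 of 28 spheroid libraries (adjusted p = 0.0613) and Dll3 in 10 of 33 against 17 of 28 (adjusted p = 0.0727). No member passed in that draw, where 25.9% of 9874 genes did. In 20 further draws at the same depth, Dll4 was called in 18 (median adjusted p = 0.00838, 0.000108 to 0.0611) and Dll3 in 9 (median 0.0608, 0.000296 to 0.259). Without thinning both passed (adjusted p = 0.00287 for Dll4 and 0.00398 for Dll3).

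The unfiltered edgeR fit of nude liver against spheroid called 42.0% of 20050 genes and 5 of the 10 members. Dll3 was lower in nude liver by a log2 difference of -2.83 ± 0.79 (SE, adjusted p = 0.0024) and Dll4 by -2.43 ± 0.82 (adjusted p = 0.01315). Without the highest library of each gene these were -2.44 (adjusted p = 0.0087) and -1.99 (adjusted p = 0.0436). Dll1 and Hes1 were called lower too, on 1 nude liver library against 7 spheroid ones with counts for Dll1 and 2 against 3 for Hes1, and Notch1 was called higher. The Notch1 call was lost without 1 nude liver library at 18.6 CPM (log2 difference 1.39, adjusted p = 0.113). Neither Dll3 nor Dll4 was called by detection on either side of the ERCC split of spheroid libraries.

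Among the receptors, Notch2 was detected at similar rates in liver and spheroids. It had counts in 13 of 33 nude and 15 of 31 F1 liver libraries against 15 of 28 spheroid ones, and after thinning in 15 of 31 against 13 of 28 for F1 liver. Its mean was 2.21 ± 4.97 CPM in nude liver, 4.52 ± 12.2 in F1 liver and 2.25 ± 5.02 in spheroids, and no test of these was past the threshold. In F1 liver 1 library at 60.7 CPM raises that mean, and the next highest is 29.4. Jag1 had counts in 10 of 33 nude and 7 of 31 F1 liver libraries, yet its nude liver mean of 5.37 ± 17.0 CPM is above the spheroid mean because 2 libraries stand at 75.2 and 64.4 CPM. Hey1 was found in 4 of 31 F1 liver libraries against 11 of 28 spheroid ones (adjusted p = 0.157).

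Host transcripts differed between the same groups. All 11 hepatocyte genes were found in more nude liver than spheroid libraries and 9 of 11 in more F1 liver ones, by the same test, as were 3 of 4 tested endothelial genes in nude liver and 0 of 3 in F1 liver. Pecam1, an endothelial adhesion molecule, was higher in nude liver than in spheroids (log2 difference 5.17, adjusted p = 4.51e-09, edgeR). Within nude liver, the 13 libraries with Dll4 counts had median hepatocyte and endothelial sums of 827 and 24.6 CPM, and the 20 without had 986 and 25.5 CPM. Their median macrophage sums were 54.0 and 2.99 CPM. Within F1 liver, the 9 libraries with Dll4 counts had a median hepatocyte sum of 725 CPM and the 22 without 120 CPM, with endothelial sums of 1.40 and 2.29 CPM, cholangiocyte sums of 112.8 and 4.88 CPM and macrophage sums of 37.7 and 14.5 CPM. The cholangiocyte and macrophage lists do not separate host from tumour cells here. In KP1 spheroids, which have no host, the cholangiocyte median was 48.1 CPM, against 29.1 in nude and 23.6 in F1 liver. The macrophage median was 13.6 CPM in KP1 spheroids, with counts of 2 of its 7 genes, against 13.8 and 20.5. The part of host cells in the members' levels was not tested.

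Pool-and-split libraries of liver colonies also held Dll3 and Dll4 less often than spheroid pools, and Jag1 and Notch2 as well. With the filter no member entered the edgeR test, which called 25.6% of 8010 genes in nude liver against spheroid pools and 11.6% of 7249 in F1 liver against spheroid pools. By libraries with counts after thinning, Dll4 was found in 2 of 35 nude liver pools against 13 of 20 spheroid pools (adjusted p = 7.8e-05), and Dll3 in 10 of 35 against 16 of 20 (adjusted p = 0.00192). Jag1 was found in 3 of 35 against 9 of 20 (adjusted p = 0.0153) and Notch2 in 5 of 35 against 11 of 20 (adjusted p = 0.00864). All 4 called members were in fewer liver pools, and so were 33.9% of 10428 genes, so a call here is common.

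In F1 liver pools the 4 called members were again Dll3, Dll4, Jag1 and Notch2. Dll4 was found in 4 of 24 F1 pools against 18 of 20 spheroid pools (adjusted p = 0.000143) and Dll3 in 6 of 24 against 16 of 20 (adjusted p = 0.00543). Notch2 was found in 2 of 24 against 11 of 20 (adjusted p = 0.00658) and Jag1 in 2 of 24 against 9 of 20 (adjusted p = 0.0363). In this comparison 35.6% of 10586 genes were called with fewer libraries in the liver. Over 20 further draws, Dll4 was called in all 20 in both pool comparisons, Dll3 in 19 in nude and 20 in F1 liver pools, Jag1 in 18 and 20, and Notch2 in 17 and 20. The nude and F1 comparisons share their spheroid libraries, and none of the 4 was called in either against the 6 spheroid pools with 0.1% ERCC or more, nor in the 5 F1 pools under 100 CPM of Rpl19-ps11. Against the other 14 spheroid pools all 4 were called in F1 liver pools, and all but Notch2 in nude liver pools.

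The unfiltered edgeR fit called 39.3% of 20053 genes and 7 members in nude liver pools against spheroid pools, with Dll1, Dll3, Dll4, Jag1 and Jag2 lower and Notch1 and Hes1 higher, the last lost without 1 library (0.93, adjusted p = 0.140). In F1 liver pools it called 28.3% of 18440 genes and 5 members, with Dll1, Dll3, Dll4 and Jag1 lower and Notch1 higher. Without 1 spheroid pool each, Dll3 (-2.39, adjusted p = 0.0538) and Dll4 (-2.24, adjusted p = 0.0756) were not called there.

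In levels, Dll4 had a mean of 4.64 ± 5.62 CPM in spheroid pools (n = 20), 0.928 ± 4.88 in nude liver pools (n = 35) and 0.554 ± 1.44 in F1 liver pools (n = 24). Dll3 had means of 11.2 ± 23.3, 0.905 ± 2.30 and 0.728 ± 2.20 CPM. One nude liver pool at 28.9 CPM holds most of that group's Dll4, and 1 spheroid pool at 106.9 CPM much of the Dll3. Notch1, by contrast, had counts in 0 of 20 spheroid pools, 6 of 35 nude liver pools (adjusted p = 0.13) and 4 of 24 F1 liver pools, where 1 pool at 68.8 CPM carries nearly all of it. Hey1 reached 160.9 and 106.3 CPM in 2 nude liver pools, with counts in 5 of 35.

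F1 and nude liver colonies, which differ in host and so in immune competence, did not differ past the threshold by detection in any member tested. That test reached 5 of the 10 members in 10-cell libraries and 4 in pools. No member entered the filtered edgeR fit of the 10-cell libraries. The F1 against nude liver pools called 12.0% of 6010 genes in the filtered edgeR fit, which no member entered. In 10-cell libraries after thinning, Dll3 was found in 7 of 31 F1 and 9 of 33 nude libraries, Dll4 in 6 and 8, Jag1 in 6 and 8, and Notch2 in 10 and 11. No adjusted p was below 0.936, where 11.6% of 10237 genes were called. In pools, 3.93% of 10740 genes and no member were called, and the smallest adjusted p of a member was 0.782. The unfiltered fit of these pools called 29.5% of 19852 genes and 1 member, Jag2, as higher in F1 liver (2.66, adjusted p = 0.000333, and 1.05, adjusted p = 0.0389, without the highest library). In 10-cell libraries the unfiltered fit called 31.7% of 19872 genes, among them Dll1 and Notch3 as higher in F1 liver. Dll1 rests on 1 library of each group and Notch3 on 2 against 3, and without the highest library both took the other sign (-0.28 and -0.65, neither past the threshold).

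**Figure D3:**
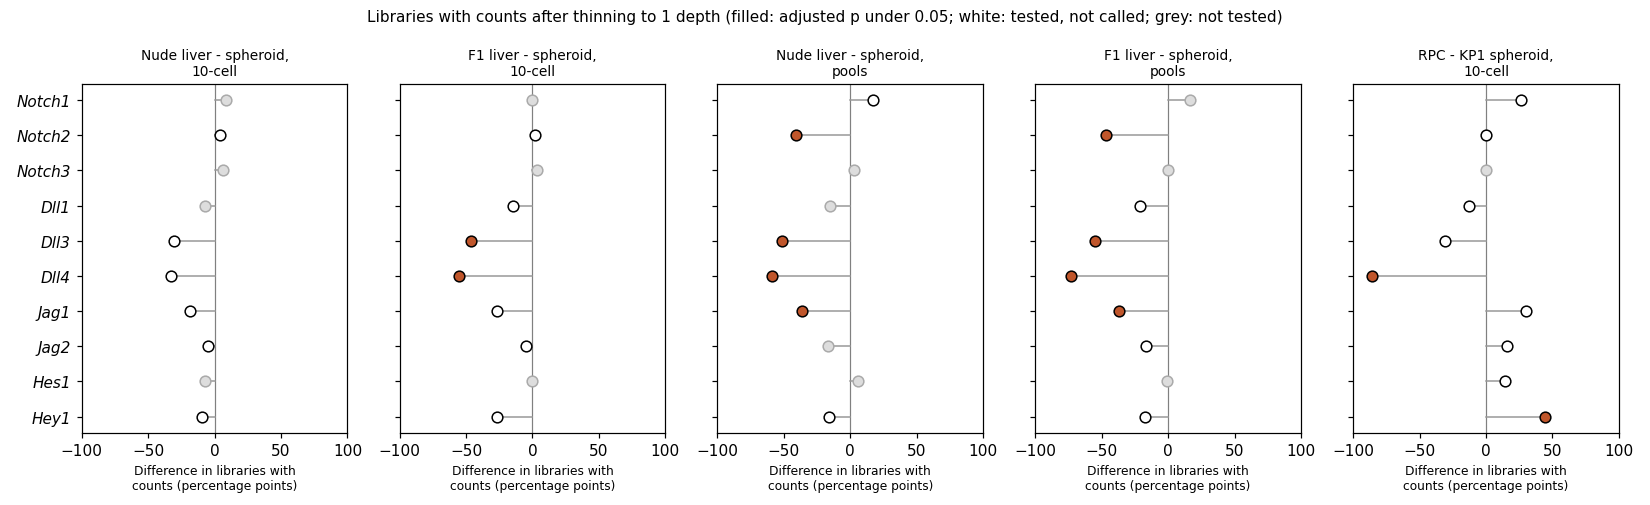
Difference in the share of libraries with counts, in percentage points, for each gene in 5 comparisons after thinning to 1 depth; filled points passed the adjusted threshold, white points did not, and grey points were outside the tested range. Dll3 and Dll4 lie left of 0 in all 5 panels, and Hey1 and Jag1 lie right of 0 in RPC against KP1.

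The RPC line asks how the pathway stands in a pre-SCLC line that also lacks Crebbp, a histone acetyltransferase, and 1 copy of p130. No RPC library had a Dll4 count (0 of 24, which allows a share of libraries of up to 14.2%), against 24 of 28 KP1 spheroid libraries. The summed KP1 libraries hold 1270 Dll4 counts, or 10.2 CPM, and the floor of 3 counts over all RPC libraries is 0.0238 CPM, 428-fold lower as summed reads. That ratio covers the counting of reads only and is no bound on transcripts or cells. Reads carry no molecular identifiers, and 3 KP1 libraries hold 59.8% of all KP1 Dll4, summed as CPM. After thinning to 3485459 counts the split was 0 of 24 against 24 of 28 (adjusted p = 5.57e-09). It was called against KP1 libraries on both sides of the ERCC split (17 of 19 and 7 of 9 with counts, adjusted p = 5.64e-08 and 0.000519). In this comparison 23.8% of 8871 genes were called.

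The other Delta-like ligands were present in RPC. Dll3 had counts in 15 of 24 RPC libraries, with a mean of 2.34 ± 6.90 CPM, a median of 0.324 and a highest of 34.0 (14 of 24 against 25 of 28 after thinning, adjusted p = 0.0812). Its log2 difference in the unfiltered edgeR fit was -2.20 ± 0.83 (adjusted p = 0.0357), and -1.81 (adjusted p = 0.0824) without the highest KP1 library. That fit called 31.5% of 19396 genes. Dll1 had counts in 2 of 24 RPC libraries, 1 of them at 14.3 CPM.

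The target Hey1 was detected more often in RPC, as were 18.9% of the 8871 genes tested, against 4.93% detected less often. It had counts in 20 of 24 RPC libraries against 11 of 28 KP1 ones (adjusted p = 0.0133), with a mean of 3.60 ± 4.75 CPM, a median of 0.827 and a highest of 17.3 in RPC, against 1.87 ± 4.55, 0 and 18.6 in KP1. The groups overlap at the top, and the difference is in how many libraries lie at 0. Against either ERCC class of KP1 libraries alone, Hey1 was not called. In 20 further draws Hey1 was called in 18 and Dll4 in 20.

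Jag1 was the one member that passed edgeR's filter, mainly through RPC, since 19 of 24 RPC and 6 of 28 KP1 libraries held at least 5 counts. It had counts in 22 of 24 RPC libraries, with a mean of 10.6 ± 13.0 CPM, a median of 6.78 and a highest of 59.0, against a KP1 median of 0.399. Its log2 difference was 1.32 ± 0.75 (adjusted p = 0.213, edgeR), where 21.9% of 8600 genes were called. The limma-voom test gave 2.92 (adjusted p = 0.000252), and the edgeR fit with a replicate block called Jag1 as well. Since Jag1 passed the filter mainly through RPC, these values are given as a description. The highest KP1 library, at 70.0 CPM, is above every RPC library. By libraries with counts Jag1 was 21 of 24 against 16 of 28 after thinning (adjusted p = 0.0945) and called without thinning (adjusted p = 0.0447) and in a second random draw (adjusted p = 0.0146), and in 5 of 20 further draws, so the call depended on depth and on the draw. In the KP1 libraries with 0.1% ERCC or more Jag1 reached at most 1.06 CPM. It entered the edgeR fit against them only through RPC, and that fit is not read as a result. Against the other KP1 libraries the edgeR log2 difference was 0.83 (adjusted p = 0.530).

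No receptor passed the main tests between the lines. Notch2 had counts in 12 of 24 RPC libraries against 15 of 28, at 1.39 ± 3.45 against 2.25 ± 5.02 CPM. Notch1 had counts in 8 of 24 against 2 of 28 (adjusted p = 0.0982, and called in 3 of 20 further draws) but never above 2.39 CPM in RPC. Notch3 had none in either line. Jag2 had counts in 9 of 24 RPC libraries and Hes1 in 6 of 24, neither past the threshold. Line, genotype and capture cannot be told apart here, since each line is 1 line.

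**Figure D4:**
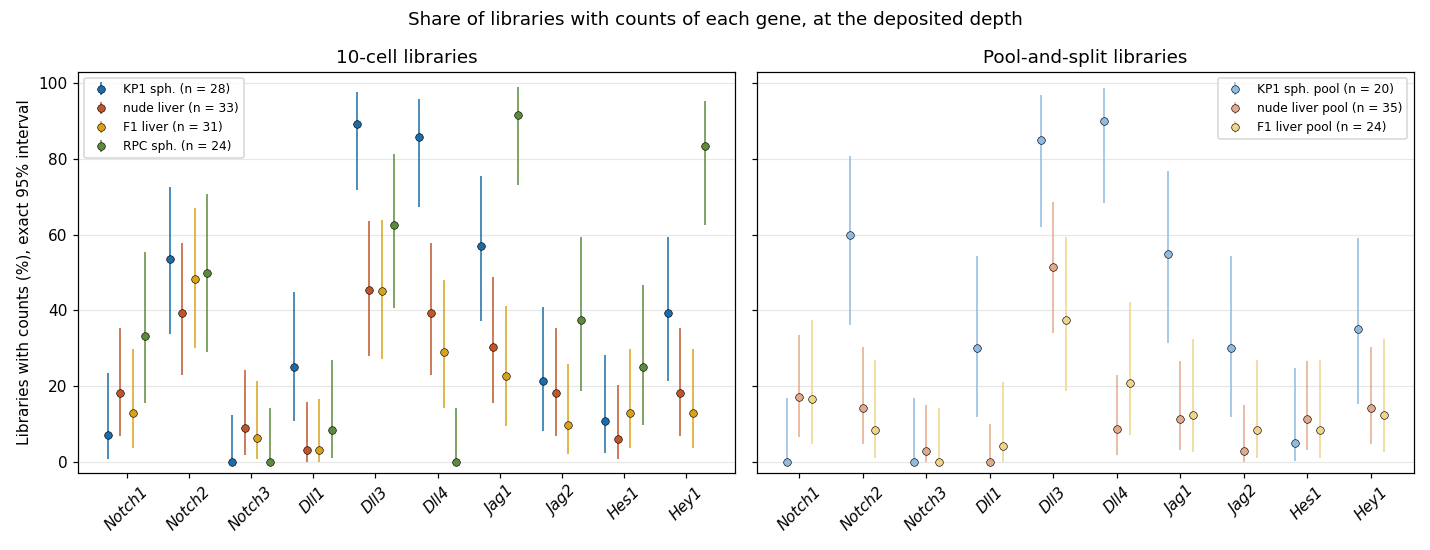
Percentage of libraries with counts of each gene at the deposited depth, with exact 95% intervals, for 10-cell groups (left) and pool-and-split groups (right). In 10-cell libraries Dll4 stands at 85.7% in KP1 spheroids, 39.4% in nude liver, 29.0% in F1 liver and 0% in RPC.

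The comparison with pool-and-split libraries asks which genes vary more among 10-cell libraries than among pools. For Dll3 in spheroids, values of log2(CPM + 1) lay on average 1.39 away from their group's median in 10-cell libraries and 1.43 away in pools (difference -0.04 ± 0.33, SE, adjusted p = 0.997, limma). For Dll4 it was 1.57 and 1.28 (difference 0.28 ± 0.29, adjusted p = 0.926). These were the members with a mean of at least 5 CPM there, and 0.0% of 8602 genes were called, with 508 at an unadjusted p under 0.05. In nude liver, where 0.777% of 9397 genes were called, Hey1 alone reached that mean, through its pools (8.85 against 1.27 CPM in 10-cell libraries), and is not read further. No member reached it in F1 liver, where 1.48% of 8759 were called. No difference in spread was detected for Dll3 or Dll4 in spheroids.

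By the share of libraries with counts, no member was called either. In spheroids Dll3 was found in 25 of 28 10-cell libraries and 17 of 20 pools after thinning, and Dll4 in 24 of 28 and 18 of 20. Here 0.0% of 8686 genes were called at an adjusted p under 0.05 by Fisher's exact test, with or without thinning, and after thinning 379 were at an unadjusted p under 0.05. In nude liver, where 1.75% of 10434 genes were called, Jag1 was found in 8 of 33 10-cell libraries and 1 of 35 pools (adjusted p = 0.126) and Notch2 in 11 of 33 and 4 of 35 (adjusted p = 0.217). In F1 liver, with 0.527% of 10631 genes called, Notch2 was found in 12 of 31 and 1 of 24 (adjusted p = 0.104).

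Signalling needs a ligand and a receptor in neighbouring cells, so their joint presence in a library of 10 cells was counted. All 28 KP1 spheroid libraries held at least 1 ligand, 15 at least 1 receptor and 14 at least 1 target. A receptor and a ligand were found together in 15 of 28 KP1 spheroid, 14 of 33 nude liver, 16 of 31 F1 liver and 15 of 24 RPC libraries. A target was found in 10 of the 15 KP1 spheroid libraries with a receptor and in 4 of the 13 without. In RPC the same counts were 14 of 15 and 7 of 9, in nude liver 6 of 16 and 1 of 17, and in F1 liver 6 of 19 and 2 of 12. In spheroid pools they were 6 of 12 and 1 of 8, but in nude liver pools 1 of 10 and 7 of 25 and in F1 liver pools 1 of 5 and 4 of 19. These counts are a description only. The median number of members with counts was 4 in KP1 spheroid and RPC libraries and 2 in both liver groups.

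Dll3 and Dll4 were found together about as often as their separate shares give. Both had counts in 21 of 28 KP1 spheroid libraries where the product of the shares gives 21.4, in 6 of 33 nude liver libraries where it gives 5.91 and in 4 of 31 F1 liver libraries where it gives 4.06. Dll3, the one member with counts in most 10-cell libraries (69), was compared with the 9264 genes that had a mean of at least 5 CPM by Spearman's correlation of group-centred log2(CPM + 1) across all 10-cell libraries of the 4 groups. The most similar genes were Nek8 (0.39), Gmip (0.34) and Lrif1 (0.34), and the median over all genes was 0.02. Libraries share depth and capture quality, and these weak correlations are given as a description.

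Hes6, a Hes-family protein that promotes neural differentiation and counters Hes1, was higher in liver. Its mean was 107.1 ± 88.8 CPM in spheroids, 287.1 ± 165.2 in nude liver and 227.2 ± 301.1 in F1 liver, with log2 differences of 1.35 ± 0.33 (adjusted p = 0.000897) and 1.45 ± 0.38 (adjusted p = 0.00665, edgeR). Liver pools were higher too, by 1.18 (adjusted p = 0.0132) and 1.45 (adjusted p = 0.0451). RPC did not differ past the threshold (-0.18 ± 0.37). Against the spheroid libraries with 0.1% ERCC or more alone, neither 10-cell call on Hes6 was kept (0.79 and 1.03), nor was either pool call (0.41 and 0.59). With the 5 F1 libraries under 100 CPM of Rpl19-ps11, Hes6 was not called against spheroids (0.61), nor was it with the 5 such F1 pools (0.89). Rest, a repressor of neuronal genes that Notch signalling turns on in SCLC, had counts in 0 of 28 KP1 spheroid, 8 of 33 nude liver, 1 of 31 F1 liver and 5 of 24 RPC libraries.

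Among 45 other pathway genes, chosen by role, edgeR calls were about as frequent as over all genes or rarer. In nude liver against spheroid 7 of 23 tested were called, 4 higher and 3 lower, where 34.1% of all genes were. The higher ones were Hes6, the nuclear cofactors Spen (2.50, adjusted p = 0.000105) and Snw1 (2.75, adjusted p = 0.00644), and the ubiquitin ligase Itch (1.71, adjusted p = 0.0125), all as log2 differences. The lower ones were Mib1 (-1.85, adjusted p = 0.0116), the ubiquitin ligase that lets ligands pull on receptors, Psenen (-1.13, adjusted p = 0.0207), a subunit of the receptor-cutting protease, and Dtx3 (-1.29, adjusted p = 0.0467). Of the 6 besides Hes6, Spen was called on both sides of the ERCC split, Snw1 (2.25) and Dtx3 (-0.86) were lost against the libraries under 0.1%, Mib1 (-0.49) against the others, and Itch and Psenen on both sides. The list's median log2 difference was 0.51 against -0.04 over all tested genes. In F1 liver against spheroid 2 of 22 were called against 12.6% of all genes, Hes6 among them, and the medians were 0.58 and 0.22. In pools, 5 of 25 were called in nude liver and 2 of 23 in F1 liver, against 25.6% and 11.6% of all genes, all higher but 1. The higher ones in nude liver pools were Hes6, Maml3 (3.08, adjusted p = 0.000854) and Spen (1.80, adjusted p = 0.0391), both nuclear cofactors, and Dtx1 (2.17, adjusted p = 0.00419). Rbpj, the DNA-binding partner of the receptors, was the lower one (-1.79, adjusted p = 0.00314). Against the spheroid pools with 0.1% ERCC or more alone, Rbpj (-0.92), Spen (0.79) and Maml3 (3.10) were not called.

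Between F1 and nude liver 4 of 22 tested pathway genes were called, against 19.2% of all genes: Pofut1 (3.48, adjusted p = 0.000681), an enzyme that adds fucose to receptors, and Dtx3 (1.64, adjusted p = 0.0309) were higher in F1 liver, and Itch (-2.17, adjusted p = 0.00254) and Spen (-1.80, adjusted p = 0.0394) lower. With the 5 F1 libraries under 100 CPM of Rpl19-ps11 alone, only Pofut1 of these was called. By detection, 5 of 30 tested pathway genes were found in fewer F1 than nude liver 10-cell libraries and 3 of 34 in fewer F1 than nude pools, against 11.6% and 3.93% of all genes called in either direction, and 0 in more. Between RPC and KP1 3 of 24 were called, against 21.9% of all genes: Psenen (-1.70, adjusted p = 0.00111) and Dtx1 (-2.62, adjusted p = 0.00605) were lower in RPC, and Itch higher (1.41, adjusted p = 0.0409). Itch was not called on either side of the ERCC split (1.80 and 1.26). All of these are log2 differences from edgeR.

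The test of libraries with counts reached other pathway genes in RPC, all named here after their values were seen. Lfng, the Fringe enzyme that shifts receptors towards Delta-like ligands, had counts in 0 of 24 RPC libraries and 18 of 28 KP1 ones (adjusted p = 1.8e-05). Nrarp, a target that feeds back on Notch, was found in 1 of 24 against 10 of 28 (adjusted p = 0.0323), and Dtx4 in 4 of 24 against 21 of 28 (adjusted p = 0.00055). Snw1 was found in 19 of 24 against 5 of 28 (adjusted p = 0.000333). The protease subunits Aph1a and Aph1c were found in 23 of 24 against 18 of 28 (adjusted p = 0.0323) and in 18 of 24 against 9 of 28 (adjusted p = 0.0171), and Fbxw7, part of a ubiquitin ligase that degrades the receptors' intracellular part, in 19 of 24 against 12 of 28 (adjusted p = 0.0484). In all, 7 of 25 tested pathway genes were called, 4 in more RPC libraries and 3 in fewer, against 18.9% and 4.93% of all genes. Lfng, Dtx4 and Snw1 were called on both sides of the ERCC split of KP1 libraries and in a second draw. Aph1a was lost against the libraries under 0.1% (adjusted p = 0.2) and in the second draw (0.083), Aph1c against those with 0.1% or more (0.208), and Fbxw7 (0.303 and 0.108) and Nrarp (0.216 and 0.0669) on both sides, Nrarp also in the second draw (0.0552).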

How the data were processed

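RNA sequencing counts of 199 libraries and 31581 mouse genes, with 92 ERCC spike-in rows, were used. The expected counts, 89.3% of them whole, were used as the authors deposited them. The submitters' processing notes name RSEM, Bowtie2, GRCm38 and GRCh38.p12, without versions or roles. Per the labels' protocols, captured libraries were amplified by poly(A) PCR and made with Nextera XT, while bulk libraries used NEBNext Ultra. Counts carry no molecular identifiers, so intervals and floors cover counting error only.

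Counts were rounded for models. Means were compared with edgeR 4.0.16 (R 4.3.3; TMM, filterByExpr, robust quasi-likelihood) and spread with limma 3.58.1 on absolute deviations of log2(CPM + 1), restricted to genes averaging 5 CPM or more. All p-values were adjusted by Benjamini-Hochberg over all genes tested and called under 0.05. DESeq2 1.42.0, limma-voom, other scalings and filters, library subsets and a replicate block were alternatives. The detection test (Fisher's exact test, scipy 1.17.1), the 100 CPM split on Rpl19-ps11, 20 further thinning draws and the refits without the highest library were added after the data were seen. Scripts were tested on simulated data. No 2 libraries agreed within sampling noise (lowest chi-square per degree of freedom 29.1 of 2708 pairs).

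The members and lists were chosen with earlier results of these data known. The genes named are all members, pathway genes called in a mean comparison (at most 8 each, by adjusted p), Hes6 and Rest, and the 3 genes most similar to a member seen in most 10-cell libraries. Some cell type markers and, after their values were seen, pathway genes called by detection in RPC are named as well. Some results of the pathway list are not reported here.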

Additional observations from a re-analysis of the deposited data

How the results depend on the processing

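With edgeR and its filter, 0 members were called in each of the 7 comparisons, and the counts below are members called. Without a filter there were 5 in nude liver against spheroid, 3 in F1 liver against spheroid, 2 in F1 against nude liver, 2 in RPC against KP1, and 7, 5 and 1 in the 3 pool comparisons in that order. With a mean of at least 5 CPM there were 1 in nude liver, 2 in RPC and 1 in F1 liver pools. With all captured groups in 1 fit there were 2, 1 and 1 for nude liver against spheroid, F1 against nude liver and RPC, and 2 in both pool comparisons with spheroids. Against spheroids with at least 0.1% ERCC there were 2 in nude liver and 1 in RPC, and without the F1 libraries richest in hepatocyte transcripts 1 in F1 liver. In F1 liver pools there was 1 with F1 pools of at least 200 CPM of Rpl19-ps11, 1 with those under 200 and 1 with those under 100. Limma-voom called 1 in RPC. The replicate block called 1 in RPC (Jag1, 3.71, adjusted p = 0.00705) and 0 in the 6 others. Replicate numbers did not pair libraries: the correlation of same-numbered libraries had medians between -0.007 and 0.0088, and 0, 1 or 2 pairs passed 0.1.

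By detection, nude liver gained 2 members without thinning, 2 at 5 counts or more and a median of 1 over 20 further draws, while that median equalled the main count in the 9 other comparisons. F1 liver kept 0 against spheroids with at least 0.1% ERCC, 1 against the others and 0 with F1 libraries under 100 CPM of Rpl19-ps11. RPC kept 1 on each side of the ERCC split, and both pool comparisons with spheroids kept 0 against pools with at least 0.1% ERCC, as did F1 pools under 100 CPM. Without their highest library, Dll1 (-0.28) and Notch3 (-0.65) reversed between F1 and nude liver. Of the log2 differences from unfiltered fits, refitted with other libraries or filters, 20 kept direction and call, 7 lost the call and these 2 reversed. Of those from filtered fits, 318 kept direction and call, 92 lost the call, 3 gained it and 14 changed otherwise. Members that entered a filtered subset fit only through the group where they are high are counted above but not read as results. The cause of these changes was not tested.

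Counts over all genes moved by more than 1.5 times under limma-voom in F1 liver (1743 against 924), RPC (3081 against 1881) and both pool comparisons with spheroids (4778 against 2054 and 3339 against 840), and under DESeq2 in F1 liver (1417 against 924) and the last 2 pool comparisons (1470 against 840 and 1089 against 721). One fit of all captured groups gave 2013 against 924 in F1 liver, 2492 against 1358 in F1 against nude liver, and 3670, 3029 and 3502 against 2054, 840 and 721 in pools. A mean of at least 5 CPM gave 1412 against 840 and 1706 against 721 in the F1 pool comparisons. Spheroids with at least 0.1% ERCC gave 174 against 924 in F1 liver and 776 and 22 against 2054 and 840 in pools. F1 libraries under 200 and under 100 CPM of Rpl19-ps11 gave 358 and 379 in F1 liver against spheroid, 302 and 223 in F1 against nude liver, 1734 and 1890 in F1 against spheroid pools and 372 and 295 in F1 against nude pools. The block gave 887 against 1358 in F1 against nude liver, and 1837 and 179 in the F1 pool comparisons. Without a filter they were 8431, 5072, 6294 and 6115 in 10-cell libraries and 7888, 5224 and 5857 in pools. Nude liver libraries are the shallowest and limit what thinning can detect. In the spread test, deviations from the group mean called 24, 385 and 1094 genes in spheroids, nude and F1 liver against 0, 73 and 130 with the median. With log2(CPM + 5) they were 8 and 55 in nude and F1 liver. With F1 libraries of at least 200 and under 200 CPM of Rpl19-ps11 they were 37 and 13, and with at least 100 and under 100 CPM 39 and 0. Spheroid libraries with at least 0.1% ERCC gave 2. The balance of higher and lower genes also turned. In nude liver against spheroid it was 1390 higher and 1279 lower, but 1757 and 2109 with limma-voom and 1339 and 1398 with the block. Without the nude libraries richest in hepatocyte transcripts it was 1115 and 1310. In F1 liver against spheroid it was 565 higher and 359 lower, but 414 and 1329 with limma-voom and 282 and 620 with the block. F1 against nude liver had 794 and 564, but 667 and 684 with RLE and 600 and 1151 with limma-voom. The block gave 367 and 520 there, and the fit without a filter 2620 and 3674. RPC had 882 higher genes and more lower ones, but 1131 and 826 with RLE, 2032 and 1049 with limma-voom, 1457 and 1020 with DESeq2 and 1256 and 763 with the block. Nude liver pools had 1323 and 731, but 1286 and 3492, 1363 and 1510, and 898 and 2029 with limma-voom, DESeq2 and the block, and F1 liver pools 648 and 192, but 393 and 2946, 703 and 767, and 219 and 1618. With F1 pools under 100 CPM of Rpl19-ps11, F1 against spheroid pools had 829 and 1061. F1 against nude pools had 493 and 228, but 224 and 598 with limma-voom, 67 and 112 with the block and 2373 and 3484 without a filter.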
